A study of Mus musculus with 6 samples.

Results

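Msgn1, Tbx6 and Pcdh8 are 3 genes of the presomitic mesoderm, the posterior tissue that buds off the somites, and they were taken from the array as every probe set annotated to 1 of these symbols. That gave 4 probe sets of 45101 in all, with 1 for Msgn1, 1 for Tbx6 and 2 for Pcdh8. RNA came from the microdissected node and primitive streak of mouse embryos aged E7.75 to E8 (0 to 2 somites), on a mixed background of C57BL/6 and 129/Sv. The embryos were either Wnt3a null or wild type for Wnt3a. Each genotype had 3 pools of 3 stage-matched embryos, hybridised to 1 Affymetrix mouse whole-genome array per pool, so a value stands for a pool and not for 1 embryo. The RNA of single embryos was amplified before pooling and once more afterwards, and the labels do not say how the null allele was made.

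Wnt3a is a secreted ligand that acts through beta-catenin and TCF/LEF transcription factors, and in the mouse gastrula it is made in the primitive streak, where cells leave to form paraxial mesoderm. Msgn1 (mesogenin 1) is a basic helix-loop-helix transcription factor, Tbx6 a T-box transcription factor, and both are needed in the mouse for presomitic mesoderm to form. Pcdh8, also called paraxial protocadherin, encodes a cell adhesion molecule of the cadherin superfamily expressed in this tissue. The comparison asks which of the 3 genes had other transcript levels without Wnt3a, at a stage chosen before the mutants look abnormal.

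The promoter windows of the 3 genes are shown because TCF/LEF factors bind DNA directly. They come from RefSeq, build GRCm38.p6, which matched 3 of 3 genes. The stretch printed runs from 250 to 101 bases before the annotated start, 5′ to 3′ on the gene's strand, with the TCF/LEF core letters CTTTGA or CTTTGT, read on both strands, in capitals.
Msgn1, chr12:11209049-11209198, minus strand: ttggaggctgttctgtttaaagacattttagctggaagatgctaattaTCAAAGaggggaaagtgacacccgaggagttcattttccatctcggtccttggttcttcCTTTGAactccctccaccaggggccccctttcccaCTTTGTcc
Tbx6, chr7:126781233-126781382, plus strand: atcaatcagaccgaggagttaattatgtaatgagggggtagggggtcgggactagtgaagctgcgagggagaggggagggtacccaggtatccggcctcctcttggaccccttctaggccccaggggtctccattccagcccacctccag
Pcdh8, chr14:79771413-79771562, minus strand: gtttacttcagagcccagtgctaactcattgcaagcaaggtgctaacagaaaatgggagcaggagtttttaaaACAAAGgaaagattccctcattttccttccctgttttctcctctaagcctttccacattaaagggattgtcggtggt

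In the whole window of 300 bases, which ends 50 bases after the annotated start, Msgn1 had 3 TCF/LEF cores, Pcdh8 had 1 and Tbx6 had 0. The cores of Msgn1 began at positions -202, -143 and -108, and that of Pcdh8 at -177. Of 32851 such RefSeq windows, 31.2% held at least 1 core and 1.1% held 3 or more. The annotated start of Msgn1 is its start codon, since the gene model of 567 bases holds the coding sequence alone, so its positions count from the start codon and those of the other 2 genes from the transcript start. Msgn1 also held 1 E-box (CANNTG, in 72.3% of windows) and 1 RBPJ core (TGGGAA, in 25.6%), which abuts the TCF/LEF core at -108. Tbx6 and Pcdh8 held 0 of either, and the T-box core letters GGTGTG (19.0% of windows) had 0 matches in the 3 genes. These are matches of letters in short windows and were not set against any binding data.

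Msgn1 and Tbx6 had lower mean signals in Wnt3a null pools than in wild-type pools, whereas both probe sets of Pcdh8 had higher means. Tbx6 was the steadiest of the 3: its 3 null pools lay close together at 1.68-fold below wild-type pools that also lay close together. Msgn1 had the larger mean ratio, 2.19-fold lower in null pools, with a wide spread. Pcdh8 was 1.67-fold higher in null pools by 1 probe set and 1.20-fold higher by the other. None of the 4 probe sets passed the test over the whole array. That test, limma on log2 signals with Benjamini-Hochberg adjustment at 0.05, called 0 of 45037 probe sets lower and 0 higher, which is 0% in each direction. At an unadjusted p under 0.05 it had 993 probe sets lower, 2.20% of those tested, and 1280 higher, 2.84%.

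**Figure D1:**
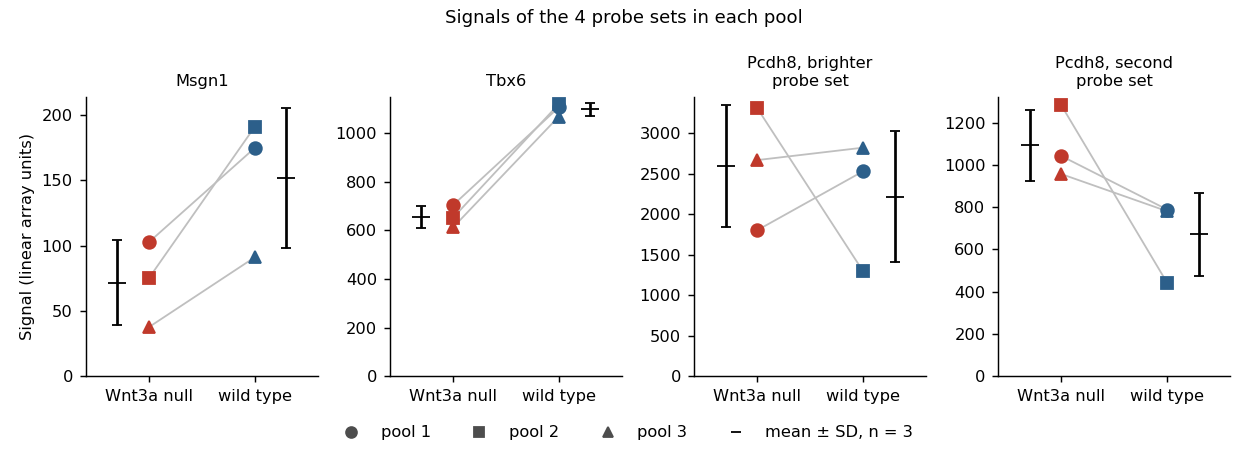
Linear signal of each of the 4 probe sets in the 3 Wnt3a null (red) and 3 wild-type (blue) pools, with lines joining pools of the same replicate number and bars giving the mean ± SD. The Tbx6 signals form separate tight groups at 612 to 704 in null pools, against 1069 to 1120 in wild type, and wild-type pool 2 is the lowest point for both Pcdh8 probe sets.

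Tbx6, which directs cells of the streak to a paraxial mesoderm fate in the mouse (GRCm38.p6, chr7:126781483-126785548), had signals of 704, 652 and 612 in null pools 1, 2 and 3, against 1107, 1120 and 1069 in wild-type pools 1, 2 and 3. The highest null pool lay below the lowest wild-type pool, so the groups did not overlap. The same held in this direction for 4.41% of all probe sets, and for 4.10% of the 18088 with a mean log2 signal of at least 7. The means were 656 ± 46.0 in null pools, against 1098 ± 26.7 in wild type (SD, n = 3 each). The log2 difference, null minus wild type, was -0.75 with a standard error of 0.19 and a 95% interval of -1.21 to -0.28 before any adjustment (limma, adjusted p = 0.739), and Tbx6 was among the probe sets lower at an unadjusted p under 0.05. A two-sided exact permutation test on Tbx6 alone gave p = 0.1, the smallest that 3 against 3 pools allow.

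Within replicate numbers, Tbx6 in the null pool stood at 63.6%, 58.2% and 57.3% of the wild-type pool of the same number. The 3 log2 differences, -0.65, -0.78 and -0.80, had an SD of 0.08. All 3 were below 0, as they were for 13.7% of all probe sets and for 16.3% of those with a mean log2 signal of at least 7. Among those 18088 probe sets, 99 had a more negative log2 difference than Tbx6, or 0.547%. When limma was given the replicate number as a block together with its trend and robust options, the 95% interval was -1.04 to -0.46 and the adjusted p 0.118. That fit called 14 probe sets lower (0.0311%) and 8 higher (0.0178%), and Tbx6 ranked 51 by p over both directions.

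Msgn1, which drives the maturation of presomitic mesoderm in the mouse (GRCm38.p6, chr12:11208382-11208948), had signals of 103, 75.0 and 37.5 in null pools, against 175, 191 and 90.9 in wild-type pools. Null pool 1 lay above wild-type pool 3, so the groups overlapped. Pool 3 was the lowest of its group in both genotypes. The means of Msgn1 were 71.7 ± 32.7 in null pools, against 152 ± 53.6 in wild type (SD, n = 3 each). The log2 difference was -1.13 with a standard error of 0.49 and a 95% interval of -2.36 to 0.10 (limma, adjusted p = 1.00). The exact permutation test gave a two-sided p of 0.2.

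Taken by replicate number, Msgn1 in the null pool stood at 58.7%, 39.3% and 41.2% of wild type, lower in 3 of 3 pairs. The pair differences varied with an SD of 0.32 on the log2 scale, while the pools varied with an SD of 0.74 within null and 0.58 within wild type. With the block alone, the adjusted p of Msgn1 was 0.798, in a fit that called 0% of probe sets. With the block, trend and robust options the adjusted p was 0.414. The probe set was dim: its mean log2 signal of 6.61 stood at percentile 55.4 of all probe sets, and adding 50 to every signal before taking log2 gave a difference of -0.73 in place of -1.13.

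Pcdh8 (GRCm38.p6, chr14:79766772-79771312) had the opposite direction in its means. The brighter of its probe sets had signals of 1803, 3312 and 2671 in null pools, against 2531, 1300 and 2824 in wild-type pools. The groups overlapped, and both the highest and the lowest values belonged to pools with the number 2. Its means were 2595 ± 757 in null pools, against 2218 ± 809 in wild type (SD, n = 3 each), a log2 difference of 0.26 with a standard error of 0.41 and a 95% interval of -0.75 to 1.27 (limma, adjusted p = 1.00). By number the differences were -0.49, 1.35 and -0.08, so the null pool was higher in 1 of 3 pairs. Without wild-type pool 2 the difference was -0.09. The name of this probe set carries the manufacturer's suffix _x_at, which marks probes that may match other transcripts too, and the annotation table gives it no accession.

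The second Pcdh8 probe set, annotated to a RefSeq transcript of the gene, had signals of 1042, 1282 and 957 in null pools, against 789, 442 and 781 in wild-type pools. All null pools lay above all wild-type pools, as they did for 5.57% of all probe sets. Its means were 1094 ± 169 in null pools, against 671 ± 198 in wild type (SD, n = 3 each). The log2 difference was 0.74 with a standard error of 0.31 and a 95% interval of -0.03 to 1.52 (limma, adjusted p = 1.00). The exact permutation p was 0.1. By number the differences were 0.40, 1.53 and 0.29, higher in 3 of 3 pairs, as for 15.0% of all probe sets. Without wild-type pool 2 the difference of this probe set was 0.47.

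**Figure D2:**
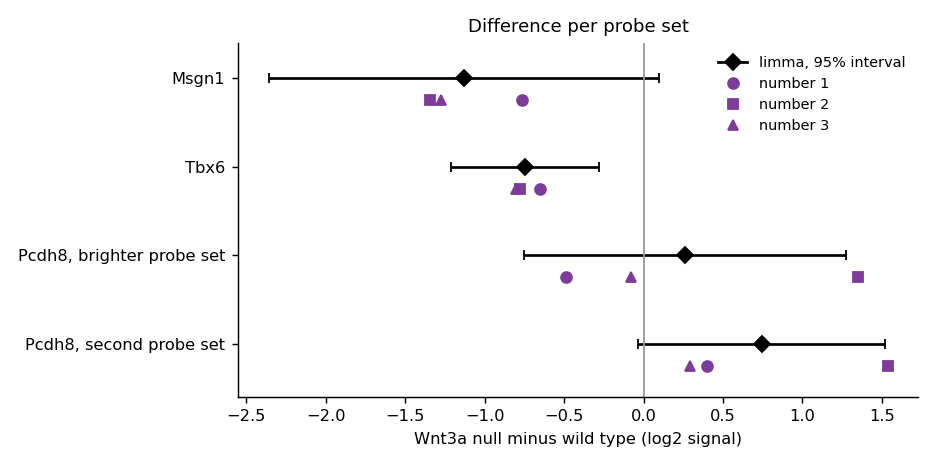
Difference in log2 signal, Wnt3a null minus wild type, for each probe set: diamonds give limma's estimate with its 95% interval, and the purple symbols below give the difference within each replicate number. The interval of Tbx6 lies below 0 (-1.21 to -0.28), the other 3 intervals include 0, and number 2 gives the highest difference for both Pcdh8 probe sets.

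The differences of the members were compared with each other, in 6 pairs of probe sets, by an exact permutation test of the pools. The difference of Tbx6 was 1.49 log2 units below that of the second Pcdh8 probe set (values of -0.75 and 0.74), and it was below it in each of the 3 replicate numbers. Msgn1 was below that probe set by 1.87, also in 3 of 3 numbers. Each test gave a two-sided p of 0.1, or 0.2 after Benjamini-Hochberg adjustment over the 6, which 3 against 3 pools could not bring under 0.05. Against the brighter Pcdh8 probe set, Msgn1 was below by 1.39 and Tbx6 by 1.01, with an exact permutation p of 0.2 each (adjusted p = 0.24). Msgn1 and Tbx6 differed by -0.39 with an exact permutation p of 0.5. The 2 Pcdh8 probe sets differed from each other by -0.48, with the second one higher in 3 of 3 numbers (exact permutation p = 0.1, adjusted p = 0.2).

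Single pools bore on the members unequally. Leaving out each array in turn kept Tbx6 between -0.80 and -0.70 on the log2 scale, and Msgn1 between -1.47 and -0.72. The value of Msgn1 nearest to 0 came without null pool 3, the pool with its lowest signal. The brighter Pcdh8 probe set ran from -0.09 to 0.50 and the second from 0.47 to 0.88. In each of these fits limma's adjusted p for all 4 probe sets stayed above 0.05.

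**Figure D3:**
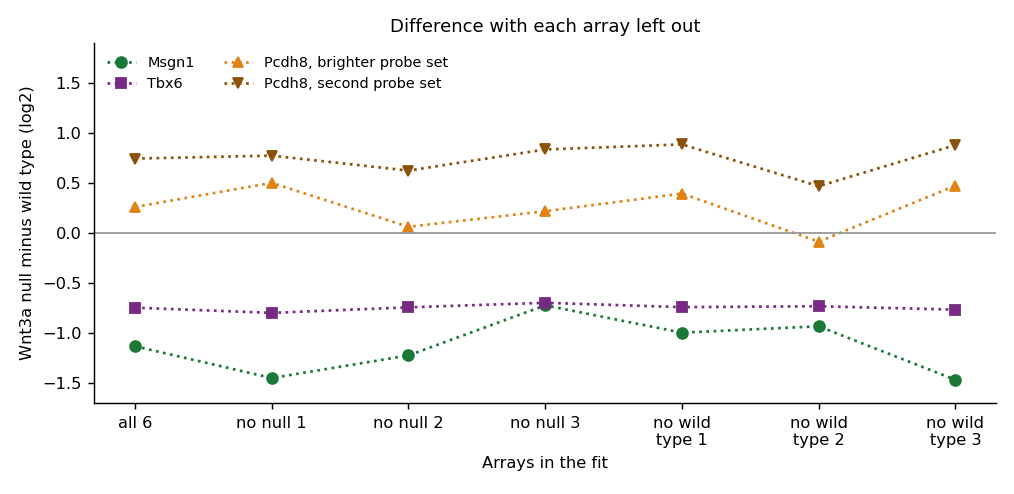
Difference in log2 signal, Wnt3a null minus wild type, with all 6 arrays and with each array left out in turn. Tbx6 stays between -0.80 and -0.70 throughout, while the brighter Pcdh8 probe set is at -0.09 without wild-type pool 2.

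The arrays themselves were alike in scale, with median signals of 77.7 to 86.1 in null pools, against 73.6 to 81.0 in wild type. The Gapdh 3′ to 5′ ratio, a sign of RNA integrity, was 2.09 to 2.39 in null pools, against 2.51 to 3.00 in wild type, so it separated the genotypes as Tbx6 and the second Pcdh8 probe set did. For beta-actin the 3′ to 5′ ratios overlapped, at 2.38 to 3.83 in null pools, against 2.68 to 3.69 in wild type. Wild-type pool 1 had a signal of 4.31 for the Y-linked gene Eif2s3y, against 1053 to 1788 in the other pools. The Wnt3a probe set had a log2 difference of -0.10 (limma, adjusted p = 1.00), and since the altered part of the gene is not known here it does not check the labels. The part of RNA integrity and of the sex of the embryos in the members' values was not tested. In the fits without wild-type pool 1, the pool of low Eif2s3y signal, Tbx6 stood at -0.74, Msgn1 at -0.99 and the Pcdh8 probe sets at 0.39 and 0.88. These fits do not bear on RNA integrity, since that pool had the lowest Gapdh ratio among wild-type pools, 2.51.

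The dissected tissue carried markers of several cell types. In a mixed tissue such as this, fewer cells of a type and less RNA per cell cannot be told apart. Primitive streak markers (Mixl1, Fgf8, Wnt3a, Evx1, Fgf4 and Fst measured, 6 of 7 listed) had a lower mean in null pools for 6 of 6, beside 49.2% of all genes. Wnt3a, the altered gene, is among the 6. Their summed signal was 5734 to 7944 in null pools, against 9303 to 11648 in wild type. The groups did not overlap for 2 of the 6, beside 4.41% of all probe sets lower. The fit with block, trend and robust options called 0 of them. Lateral plate and cardiac markers had a higher mean for 7 of 9, summing to 5158 to 5747 in null pools, against 2871 to 4354 in wild type. The groups did not overlap for 3 of these 9, all higher in null pools, beside 5.57% of all probe sets. That fit called 1 of them higher, beside 0.0178% of all probe sets. The summed signals of node and notochord, neural plate, definitive endoderm, blood and endothelium, visceral endoderm and surface ectoderm markers overlapped between genotypes. Blood and endothelium genes had a higher mean in null pools for 8 of 8, with a median log2 difference of 0.73. Only 3 of those 8 had a mean log2 signal of at least 7, and the groups did not overlap for 1. Neural plate genes had a higher mean for 7 of 9 (median 0.59). The groups did not overlap for 5 of these 9, all higher in null pools, as for 5.57% of all probe sets. The fit with block, trend and robust options called 2 of the 9 higher, beside 0.0178% of all probe sets. Definitive endoderm genes had a higher mean for 5 of 6 (median 0.24). Node and notochord genes had a lower mean for 4 of 6 (median -0.40), and visceral endoderm and surface ectoderm had medians of -0.02 and -0.01. Visceral endoderm markers were bright in both genotypes, with sums of 38847 to 53252 in null pools, against 31245 to 70857 in wild type. The part of tissue makeup in the members' values was not tested.

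Regulators that act above the presomitic genes mostly had lower means in null pools, as Msgn1 and Tbx6 did. Of 17 measured genes of this list, 13 had a lower and 4 a higher mean in null pools, 0 passed limma's test, and the median log2 difference was -0.52, beside 0.00 over all 18193 genes. Without wild-type pool 3 the list median was -0.34. Mixl1, Fgf8, Wnt3a, Evx1 and Fgf4 were counted both here and among the streak markers above, so the counts are not independent. Cdx1, a caudal homeobox gene active posteriorly, had 1021 ± 40.0 in null pools, against 2450 ± 66.0 in wild type (SD, n = 3 each), a log2 difference of -1.26. Sp5, a zinc finger target of Wnt signalling, had a difference of -1.69, and Lef1, which carries beta-catenin to DNA, of -0.65. The other measured TCF/LEF genes, Tcf7l2 and Tcf7l1, were higher in null pools, by 0.68 and 0.60, and their groups did not overlap. Both were named after their values were seen. Over the list the groups did not overlap for 8 genes lower in null pools and 2 higher, beside 4.41% and 5.57% of all probe sets. In the fit with block, trend and robust options 3 genes of the list were lower, beside 0.0311% of all probe sets, among them Cdx1 (limma, adjusted p = 0.00349) and Sp5 (0.0270); the third, Cdx4, was singled out after its value was seen. The 3 were also called without any 1 of the 3 pairs, and with trend and robust options but no block none of them was (smallest adjusted p = 0.0501, for Cdx1).

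The other presomitic genes had mean differences of both signs, as the 3 members did. For the brighter Pcdh8 probe set that sign rested on wild-type pool 2. Of 20 measured, 12 had a lower and 8 a higher mean in null pools, with a median log2 difference of -0.10 and 0 passing limma's test. The groups did not overlap for 7 genes lower in null pools and 1 higher, beside 4.41% of all probe sets lower and 5.57% higher. The list median was -0.03 without wild-type pool 1 and -0.27 without wild-type pool 2. Cited1, a transcriptional coregulator, had 461 ± 93.4 in null pools, against 1060 ± 179 in wild type, a log2 difference of -1.21. Hes7, a repressor of the segmentation clock, had 660, 652 and 674 in null pools, against 1154, 838 and 1413 in wild-type pools. Ripply2, which in the mouse limits Tbx6 protein where somites form, had 253, 393 and 332 in null pools, against 74.3, 50.1 and 189 in wild-type pools. Its log2 difference was 1.85 (limma, adjusted p = 0.862). With block, trend and robust options Cited1 (limma, adjusted p = 0.0216) and Dll1 (0.0460) were lower, in a fit that called 0.0311% of all probe sets lower. Dll1, a Notch ligand whose expression depends on Tbx6 in the mouse, was named after its value was seen. Without pair 1 both calls were lost (adjusted p = 0.0572 and 0.120), without pair 3 that of Dll1 was (0.0664), and neither was made with trend and robust options but no block (0.574 and 1.00).

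Genes of formed somites were mostly dim and had no common direction. Of 13 measured, 6 had a lower and 7 a higher mean in null pools, the median log2 difference was 0.16 and 0 passed limma's test. That median ran from -0.38 without wild-type pool 1 to 0.34 without wild-type pool 3, and it was also below 0 without null pool 3 (-0.16) or wild-type pool 2 (-0.01). Tcf15, a basic helix-loop-helix gene of the epithelial somite, had 573, 522 and 527 in null pools, against 247, 270 and 469 in wild-type pools. Its groups did not overlap, and its log2 difference was 0.78 (limma, adjusted p = 0.987). Foxd1 had a log2 difference of -1.44 and Pax1, a gene of the sclerotome, of -1.74, at mean signals of 59.2 and 11.9 in null pools, against 181 and 41.9 in wild type.

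The members' relatives in the basic helix-loop-helix and T-box families mostly had higher means in null pools, opposite to Msgn1 and Tbx6, and 0 of them passed limma's test. Most of the T-box genes were dim. Among mesodermal basic helix-loop-helix genes, the family of Msgn1, 2 of 12 had a lower and 10 a higher mean in null pools, with a median log2 difference of 0.31. Without null pool 1 or 3 that median was 0.51 or 0.56. Mesp2, which acts in setting segment boundaries in the mouse, had 245, 142 and 318 in null pools, against 61.0, 86.0 and 157 in wild-type pools, with overlapping groups and a log2 difference of 1.25. Hand2, a gene of lateral and cardiac mesoderm, had a difference of 0.78.

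Of 14 measured T-box genes other than Tbx6, 4 had a lower and 10 a higher mean in null pools, with a median of 0.32. The median rested on single arrays, at 0.03 without null pool 3, 0.17 without wild-type pool 3 and 0.75 without null pool 1. Only 4 of these 14 genes had a mean log2 signal of at least 7, and over those the median was 0.07. Over the T-box genes at or above the median signal of all probe sets it was 0.59. Tbx20, a heart progenitor gene, had 1337 ± 278 in null pools, against 644 ± 147 in wild type (SD, n = 3 each), and it passed, as higher, in the fit with block, trend and robust options (adjusted p = 0.0313, in a fit that called 0.0178% of probe sets higher). That call was lost without pair 1 (0.0732), without pair 3 (0.0872) and with trend and robust options but no block (0.821). Tbx1, a pharyngeal gene, had 132 ± 45.1 in null pools, against 49.1 ± 10.7 in wild type. Tbx15 had 7.98 ± 3.66 in null pools, against 35.8 ± 4.63 in wild type, near the floor of the arrays. T, the founder of the family, was not analysed here.

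Among 16 protocadherins and cadherins other than Pcdh8, 10 had a lower and 6 a higher mean in null pools, with a median of -0.12 and 0 passing. The median was 0.14 without wild-type pool 2, -0.33 without wild-type pool 1, and -0.04 without either null pool 3 or wild-type pool 3. Pcdh18 had 653, 717 and 838 in null pools, against 975, 993 and 1388 in wild-type pools. Its log2 difference was -0.59, opposite in sign to both Pcdh8 probe sets. Pcdh17 had a difference of 2.20 and Pcdh12 of -0.94, at mean signals of 87.5 and 45.8 in null pools, against 14.6 and 80.2 in wild type.

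**Figure D4:**
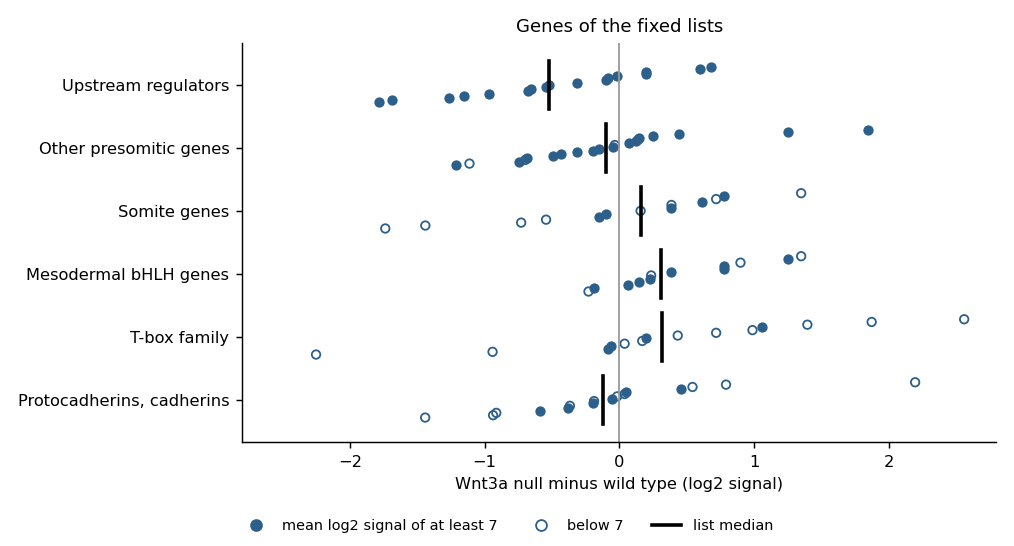
Difference in log2 signal, Wnt3a null minus wild type, of every measured gene in the 6 fixed lists, with 1 point per gene by its brightest probe set and a bar at each list's median. Medians run from -0.52 for the upstream regulators to 0.32 for the T-box family, and the points furthest from 0 in the family lists are mostly open symbols, with a mean log2 signal below 7.

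The genes whose profile over the 6 arrays lay nearest to each member were found by the root mean square distance between log2 signals, each centred on its own mean, among 9688 genes with a mean log2 signal of at least 7. Nearest to Tbx6 were Tnfrsf19 at a distance of 0.08, Zfp24 at 0.09, Tamm41 at 0.10 and Diaph1 at 0.11, against a spread of 0.38 in Tbx6 itself. Their log2 differences between genotypes ran from -0.72 to -0.57. Nearest to Msgn1 were Tcea3 at 0.23, Mmgt2 at 0.27, Cdkn1a at 0.29 and Dcxr at 0.30, against a spread of 0.79. All 4 had their lowest signal in null pool 3 and their lowest wild-type signal in wild-type pool 3. Nearest to the brighter Pcdh8 probe set were Megf9 at 0.15, Rpl39 at 0.17, Arg1 at 0.17 and Pacs2 at 0.18, against a spread of 0.45, with differences between genotypes of only -0.01 to 0.29. The profile of Tbx6 itself lay 0.53 from that of Msgn1, and 84 genes lay nearer to Msgn1 than this. The brighter Pcdh8 probe set lay 1.11 from Msgn1 and 0.69 from Tbx6. With so many genes and 6 arrays, such likeness is a description only.

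**Figure D5:**
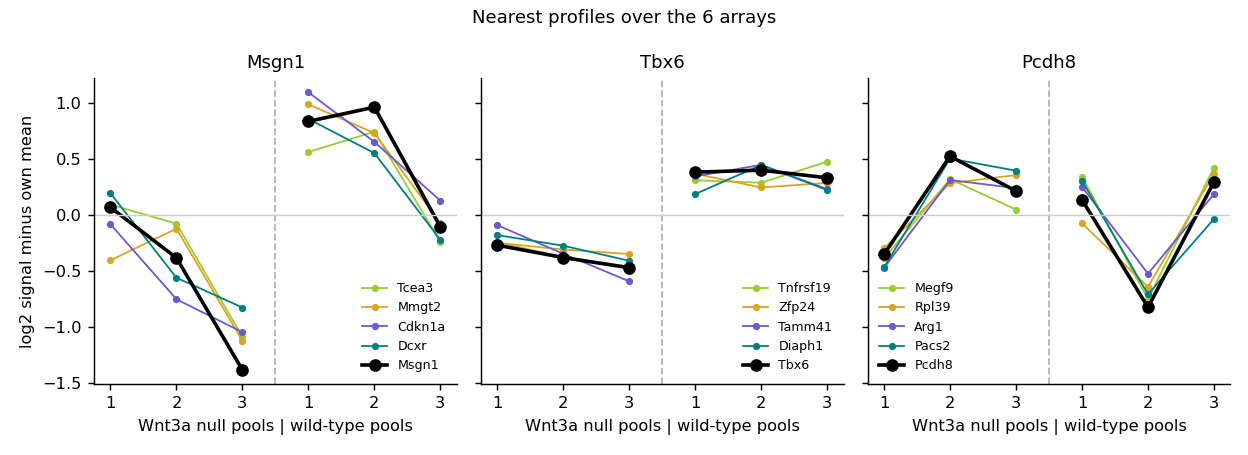
Log2 signal minus its own mean in the 3 Wnt3a null and 3 wild-type pools for each member (black, its brightest probe set) and the 4 genes with the nearest profile. Tbx6 and its neighbours vary little within each genotype, and Msgn1 and its neighbours are lowest in pool 3 of each genotype. Pcdh8 and its neighbours are lowest in null pool 1 among null pools and in wild-type pool 2 among wild-type pools.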

How the data were processed

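The deposited values are linear intensities, 1 for each probe set on each of 6 arrays. RMA is named, with no version, in the submitters' processing notes. RMA gives log2 values, however, and these intensities have a common trimmed mean (2% off each tail) of 500.0, so how they were made is unknown here. They were turned to log2 with no floor. The 64 control probe sets were left out, and 45037 were tested, of which 34945 have 1 gene symbol (18193 genes). Genotypes were compared with limma 3.58.1 in R 4.3.3 (lmFit, eBayes), two-sided. The fits were tested on simulated data. The simulation held changes larger than any member's and no effect shared within replicate numbers, so it does not bear on the members' values. For lists, a gene was represented by its brightest probe set. Some genes stand in several lists, among them Mesp1, Mesp2, Tcf15, Hand2, Eomes, Tbx18, Tbx20 and Cdh2, so the lists are not independent. Members, lists and the fit with block, trend and robust options were chosen with earlier results of these data known. Named beyond the members were the 3 genes of smallest p per list and the 4 nearest profiles per member. Cdx4, Dll1, Tcf7l1 and Tcf7l2 were named as well, after their values were seen. The labels call the pools biological replicates. Deviations from genotype means correlated within replicate numbers 1, 2 and 3 at 0.422, 0.454 and 0.282 over the 18088 probe sets whose log2 signal averaged at least 7, an unplanned restriction (0.054, 0.052 and 0.034 over all probe sets). Correlations between unlike numbers were not computed. The numbers were taken as pairs in the pair values and the block fits only. The main limma fit and the exact permutation tests did not use them. With arrays, their number limits the precision.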

Additional observations from a re-analysis of the deposited data

How the results depend on the processing

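The log2 difference of Tbx6 stayed below 0 in all 20 alternatives (-0.80 to -0.70, adjusted p from 0.0713 to 1.00), that of Msgn1 in all 18 that kept its dim probe set (-1.47 to -0.72) and that of the second Pcdh8 probe set above 0 in all 18 (0.35 to 0.97). None of the 4 probe sets was called in any of them. The brighter Pcdh8 probe set turned to -0.087 without wild-type pool 2 and to -0.28 with replicate block, trend and robust settings once both pools of number 2 were left out. It ran from -0.087 to 0.50 over single arrays left out and from -0.28 to 0.63 over pairs left out. The replicate block changed no call of a member. With the block alone 0 probe sets were called, and with trend and robust options alone 1 was called lower. With the replicate block and both options together 14 were called lower and 8 higher, also when only probe sets with a mean log2 of at least 7 were kept, an alternative chosen after seeing the data. Leaving out 1 pair from that fit gave 10, 68 and 10 called lower and 11, 70 and 17 higher, for pairs 1, 2 and 3, and leaving out 1 array from the fit without the block gave 0. The cause was not tested. List medians kept their sign in every alternative run for upstream regulators (-0.60 to -0.34), other presomitic genes (-0.29 to -0.03), T-box genes (0.03 to 0.88) and basic helix-loop-helix genes (0.16 to 0.58), while that of somite genes ran from -0.38 to 0.39 and that of protocadherins and cadherins from -0.33 to 0.14.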
